A study of Mus musculus with 16 samples.

Results

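The regions described here are clusters of crosslinked RNA in the 5' untranslated regions (5' UTRs) of mouse messenger RNAs, recovered with the coactivator PGC-1α. A cluster belonged to the set when its midpoint fell, on the same strand of the mm10 genome, in a 5' UTR exon of the protein-coding transcript with the longest coding sequence of its gene (GENCODE M21, transcripts of at least 2 exons). Of 1331383 clusters in 8 libraries, 24161 met this rule, in 4848 of the 19365 genes with an annotated 5' UTR. No measured value entered the choice. The libraries were made by seCLIP, in which ultraviolet light at 254 nm and 400 mJ/cm2 links RNA to protein, the protein is precipitated with an antibody against PGC-1α, and the attached RNA is compared with an input. The cells were primary hepatocytes freshly isolated from C57BL/6J livers and grown in high-glucose medium. In the glucagon group they spent a night in starvation medium and then received 200 nM glucagon for 3 h, and the control group is labelled untreated. Each of the 4 groups (control or glucagon, lower or upper band) had 2 libraries, and 8 further input libraries were not analysed here as samples of their own. The labels name the bands and do not say which complexes or sizes they hold. The labels do not say whether replicates came from separate animals or cultures, nor whether the lower and upper band of one number shared a lysate, so a p-value here covers only how far single libraries lie apart, and that spread can be technical.

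The 5' UTR is the stretch that a ribosome scans from the cap to the start codon, and it is where translation of many mRNAs is set. It begins in the first exon, whose end, the first 5' splice site, is recognised by the U1 snRNP while the RNA is still being made. PGC-1α switches on gluconeogenic and mitochondrial genes in the fasting liver and carries an RNA recognition motif and a serine and arginine rich region near its C-terminal end.

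The authors give each cluster a log2 fold over input and a −log10 p-value, and a cluster with both at 3 or more is called enriched here. Read counts were not analysed here, so depth could be judged only by the number of clusters, which ran from 26279 in glucagon lower band replicate 1 to 260814 in control upper band replicate 2. The 5' UTR clusters numbered 1113 in the former and 2191 to 4159 in the others. As a check of the cell type, 10 of 10 hepatocyte markers had clusters, 268 to 610 in each library. Of 10 markers each, 1 Kupffer cell gene (3 to 7 clusters in a library), 2 endothelial genes (0 to 1), 1 stellate cell gene (0 to 4) and 5 cholangiocyte genes (3 to 39) had any.

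Sites that recur are shown by sequence, with the Cwc22 site, which had clusters in glucagon libraries alone, and the Klf15 site, found in 1 library, because the results below come back to them. Each is a window of 30 nt at the middle of the enriched cluster with the highest fold in its gene. The Cwc22 cluster is narrower than its window. The letters are read 5' to 3' on the transcript strand from the GENCODE M21 transcript (mm10), and runs of at least 4 G are in capitals. The windows lie at chr6:117907092-117907121 (Hnrnpf, plus strand), chr3:135439413-135439442 (Ube2d3, plus), chr12:8674745-8674774 (Pum2, plus), chr14:8214802-8214831 (Kctd6, plus), chr15:76009416-76009445 (Fam83h, minus), chr2:77946163-77946192 (Cwc22, minus) and chr6:90464683-90464712 (Klf15, plus).
Hnrnpf: aagcctcaactgcctcagctacaactgcca
Ube2d3: cccGGGGctcgtcttcctttcaagaggccg
Pum2: gaccagatccgtgtgggtgccaggcggcct
Kctd6: GGGGtgggacGGGGaaacgaaacgtgactg
Fam83h: cgggaccgcgaggccgctgggcggcggtgg
Cwc22: actgacgctcttccggtatgatggcggcgc
Klf15: tgaccgttcagacattagtaagtgctcagt
The windows of Hnrnpf, Pum2, Kctd6, Fam83h and Cwc22 lie in exon 1 of the transcript, as does that of Ube2d3, and the Klf15 window lies in a later 5' UTR exon.

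Clusters in 5' UTRs were seldom enriched, yet more often than those in the coding sequence of the same transcripts. Of the 24161 clusters, 350 were enriched, which is 1.45% of them against 2.7% of all clusters in the 8 libraries, 0.104% of 214465 coding clusters and 13.9% of 42053 clusters in the first 500 nt of the first intron. By library, the enriched share of 5' UTR clusters was 1.59% and 2.08% in control lower band replicates 1 and 2, 1.02% and 1.73% in control upper band, 1.44% and 0.673% in glucagon lower band, and 1.46% and 1.73% in glucagon upper band. The low value of glucagon lower band replicate 2 (exact Clopper-Pearson 95% interval 0.448% to 0.972%, counting error only) lay apart from the high value of control lower band replicate 2 (1.64% to 2.60%). Over the 8 libraries the share was 1.46% ± 0.440 (SD) in 5' UTRs and 0.124% ± 0.0842 in coding sequence, which is 1.34 ± 0.417 percentage points more, with the higher value in the 5' UTR in 8 of 8 (exact two-sided sign flips, p = 0.00781, adjusted p = 0.0195 by Benjamini-Hochberg over 10 tests). The first 500 nt of the first intron held 14.1% ± 3.16, and the difference of 5' UTR minus intron, -12.6 ± 2.80 percentage points, was negative in every library (exact sign flips, adjusted p = 0.0195). The order coding sequence, 5' UTR, first intron thus held in each library. The median log2 fold of 5' UTR clusters was between 0.26 and 1.05 in the libraries, against -0.35 to 0.56 in coding sequence and 1.84 to 3.05 in the first intron.

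**Figure D1:**
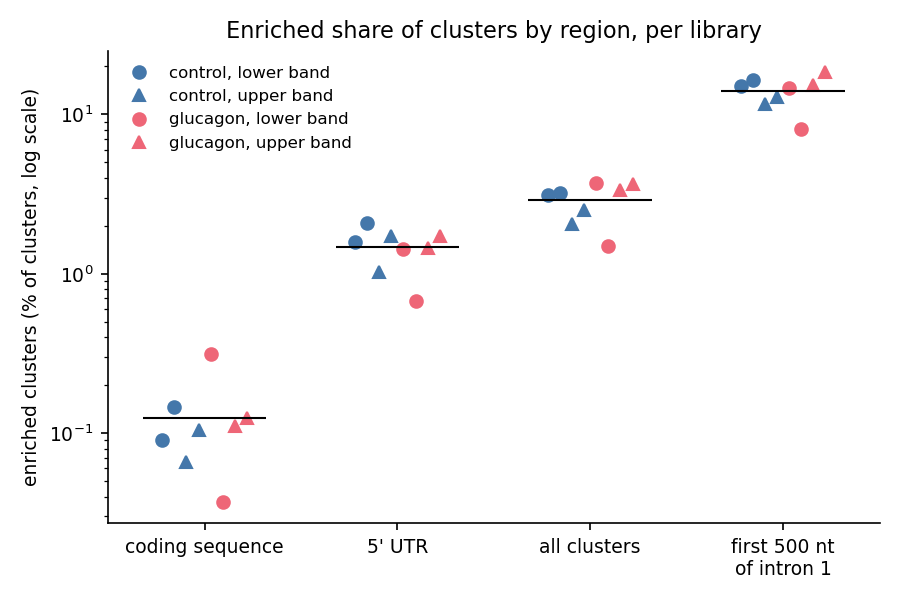
Enriched share of clusters (percent, log axis) in coding sequence, 5' UTRs, all clusters and the first 500 nt of the first intron, 1 point for each of 8 libraries and a line at the mean. The 5' UTR points lie between 0.673% and 2.08%, above the coding point and below the intron point of the same library.

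Enrichment differed on the 2 sides of the first 5' splice site. On the exon side, the enriched share was 2.15% ± 0.963 beyond 400 nt upstream of the site, 2.42% ± 0.881 at 201 to 400 nt, 1.72% ± 0.710 at 101 to 200 nt and 0.781% ± 0.566 in the last 25 nt of the exon (mean ± SD, n = 8). On the intron side it was 4.28% ± 3.40 in the first 25 nt, 9.78% ± 2.50 at 51 to 100 nt and 16.3% ± 3.63 at 401 to 500 nt. Within exon 1 the share was lowest at the exon end. The bins hold different genes and are descriptions, and the thinnest, the first 25 intron bases, held as few as 23 clusters in 1 library.

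**Figure D2:**
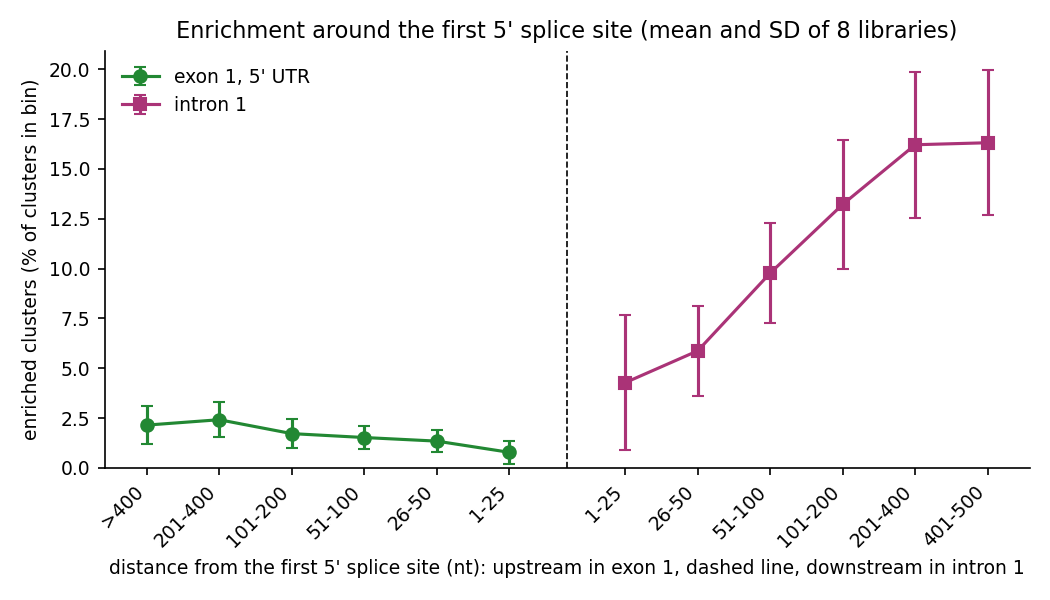
Enriched share of clusters (percent) by distance in nt from the first 5' splice site, in exon 1 of the 5' UTR (left of the dashed line) and in intron 1 (right), mean and SD of 8 libraries. The exon bins stay at or under 2.42% and the intron bins run from 4.28% to 16.3%.

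Enriched 5' UTR clusters did not gather at the splice site itself by the tests planned. Within 100 nt upstream of it lay 28.9% ± 7.67 of the enriched and 32.2% ± 1.52 of the other 5' UTR clusters, a difference of -3.33 ± 7.39 percentage points (exact sign flips, adjusted p = 0.279). A window of 50 nt gave -4.96 (exact sign flips, adjusted p = 0.0313), and with clusters outside exon 1 left out, an alternative chosen after seeing the data, the 100-nt window gave -10.3 (exact sign flips, adjusted p = 0.0391). Clusters that ran over the exon end into the intron made up 9.29% ± 4.65 of the enriched, 35 in all, and 8.43% ± 1.19 of the others, a difference of 0.859 ± 4.37 (exact sign flips, adjusted p = 0.608). When clusters were placed by their 5' end instead of the midpoint, this difference was 5.47 (exact sign flips, adjusted p = 0.0313). Enriched clusters were also wider, with a median of 78 nt against 53 nt.

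The first exon held nearly all enriched clusters. Of the 350, 332 lay in exon 1 and 18 in later 5' UTR exons. The mean share in exon 1 was 95.4% ± 2.74 of the enriched and 79.5% ± 1.26 of the other clusters, so 15.9 ± 3.22 percentage points more in the enriched, with the same sign in 8 of 8 libraries (exact sign flips, adjusted p = 0.0195). For comparison, exon 1 makes up 82.7% of the 5' UTR bases of these genes. With a log2 fold of at least 4, the difference was 11.96 and the call was lost (exact sign flips, adjusted p = 0.0781). Enrichment by exon was 1.74% ± 0.50 in exon 1, 0.410% ± 0.340 in exon 2 and 0.165% ± 0.305 further on.

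Most 5' UTR clusters lay near the start codon, but the enriched ones lay further upstream. Within 100 nt of the start codon, counted along the spliced transcript, lay 54.2% ± 1.59 of the clusters that were not enriched and 28.3% ± 9.29 of the enriched, where 32.2% of the 5' UTR bases of these genes lie that close. The difference of -25.8 ± 9.42 percentage points was negative in every library (exact sign flips, adjusted p = 0.0195). The call was lost with a log2 fold of at least 4 (-15.5, exact sign flips, adjusted p = 0.286). The median distance was 217.5 nt for the enriched and 88 nt for the other clusters. The genes with an enriched cluster also had longer 5' UTRs, with a median of 323.5 nt against 240 nt for all genes with a cluster and 167 nt for all genes with a 5' UTR. Enrichment was 0.625% ± 0.237 in the last 25 nt before the start codon, 1.38% ± 0.744 at 101 to 200 nt, 2.89% ± 1.17 at 201 to 400 nt and 3.62% ± 1.28 beyond 400 nt. At the other end, clusters centred in the first 25 nt of the transcript were enriched in 4.52% ± 3.13 of cases, against 1.17% ± 0.454 at 101 to 200 nt.

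A gene can have several start sites, so that the 5' UTR of one transcript is intron in another. Among the 5' UTR clusters, 10.8% were only intronic in the other coding transcripts of the gene, and this class held 43.1% of the enriched clusters. Its enriched share was 5.56% ± 2.13, against 2.60% ± 0.807 where other transcripts had an exon in one case and an intron in another, 0.721% ± 0.538 where no other coding transcript spanned the site and 0.648% ± 0.464 where all others had an exon. In a test added after seeing the data, 65.4% ± 13.2 of the enriched and 23.3% ± 2.52 of the other clusters were intronic in at least 1 other coding transcript, so 42.1 ± 11.3 percentage points more, with the same sign in 8 of 8 libraries (exact sign flips, p = 0.00781). Without the clusters of this kind, 118 enriched clusters in 74 genes were left. Hnrnpf, Ube2d3 and Pum2 had no enriched cluster among these 118. Enriched clusters also reached past the annotated transcript start more often, with 36 of 350 doing so against 535 of 23811, and the share was higher among the enriched in 8 of 8 libraries (3.95% to 18.2% against 1.93% to 2.64%). A wider cluster reaches past the start more easily, and the enriched were wider (median 78 nt against 53 nt). The part of width in this was not tested. Whether the RNA crosslinked at these sites was spliced message or precursor of a longer transcript cannot be told apart by position.

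**Figure D3:**
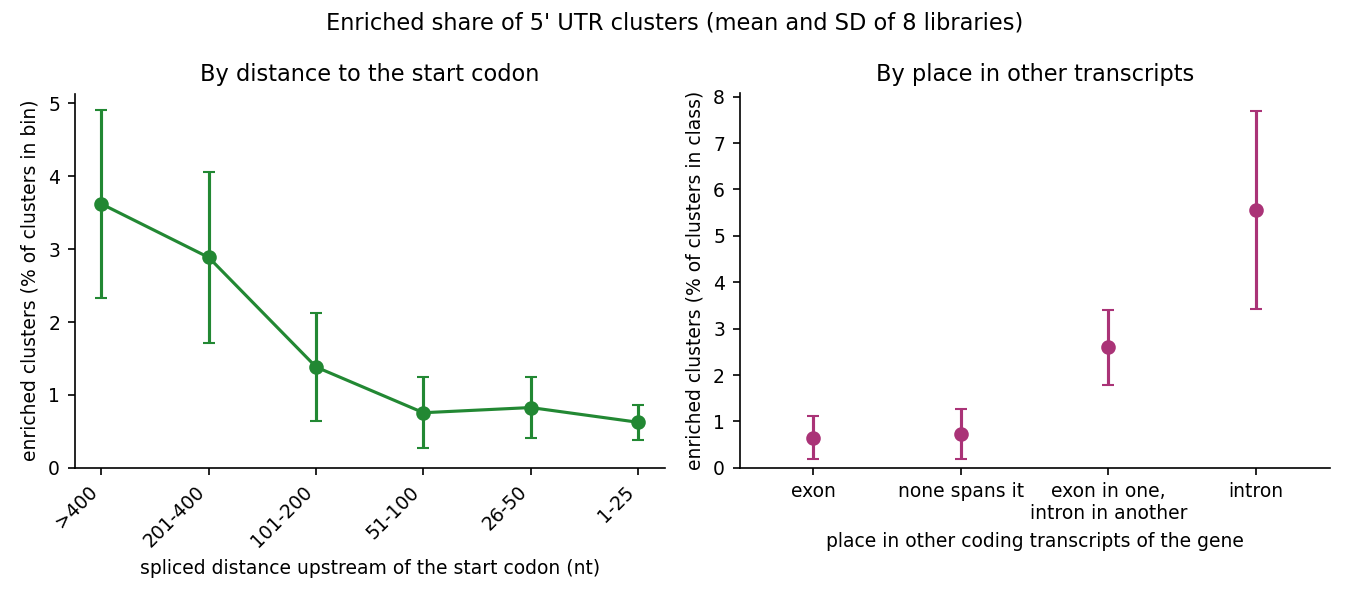
Enriched share of 5' UTR clusters (percent) by spliced distance upstream of the start codon in nt (left) and by what the site is in the gene's other coding transcripts (right), mean and SD of 8 libraries. The share is 3.62% beyond 400 nt and 0.625% within 25 nt of the start codon, and 5.56% where the site is intron in all other coding transcripts.

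The 350 enriched clusters lay in 162 genes, which is 3.34% of the 4848 genes with a 5' UTR cluster. Outside 5' UTRs, 25.7% of 10698 genes had an enriched cluster. For most genes, enrichment in the 5' UTR was called in 1 library only. Of the 162 genes, 96 had an enriched 5' UTR cluster in 1 library, 32 in 2, 14 in 3, 11 in 4, 4 in 5, 3 in 6 and 2 in all 8. Any 5' UTR cluster, enriched or not, was found in 1 library for 1350 of the 4848 genes and in all 8 for 424. The threshold cut through a continuum, since 45 enriched clusters lay less than 0.1 above it in log2 fold, and 38 clusters that met the p-value limit lay up to 0.1 under it.

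Hnrnpf, which encodes the splicing regulator hnRNP F, a protein that binds runs of G, was one of the 2 genes enriched in all 8 libraries. Its transcript starts at chr6:117906849 and has a 5' UTR of 538 nt in 3 exons. The highest log2 fold of an enriched cluster was 4.28 and 4.34 in control lower band, 3.30 and 4.53 in control upper band, 3.14 and 3.26 in glucagon lower band, and 3.50 and 3.91 in glucagon upper band. The mean was 3.78. The 2 glucagon lower band libraries were below all others, and the other groups overlapped. The enriched clusters fell at 2 main sites. A cluster centred 110 to 140 nt from the transcript start was enriched in all 8 libraries, and a second one, at the printed window, was enriched in the 4 control libraries and in glucagon upper band replicate 2. At that window the log2 fold was 4.28, 4.34, 3.21 and 4.53 in the control libraries, 2.65 in glucagon lower band replicate 2, 2.73 and 3.91 in glucagon upper band, and glucagon lower band replicate 1 had no cluster there. This window was placed on the gene's highest enriched cluster, a control one, so these values are a description. Control upper band replicate 1 had 1 more enriched cluster, centred 222 nt from the transcript start and adjoining the one at the window (3.25). In addition, all 31 clusters in the first 500 nt of the gene's first intron were enriched, 3 to 6 in each library.

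Ube2d3, which encodes an E2 ubiquitin-conjugating enzyme, was the other. Its 5' UTR of 564 nt lies in 1 exon that starts at chr3:135439211. The highest log2 fold was 4.40 and 3.20 in control lower band, 3.19 and 3.55 in control upper band, 4.05 and 3.16 in glucagon lower band, and 3.18 and 3.62 in glucagon upper band. By this highest value the treatments overlapped. At the printed window they did not, with log2 folds of 4.40, 3.20, 3.19 and 3.32 in the control libraries, all enriched, against 1.89 in glucagon lower band replicate 2 and 2.55 and 2.84 in glucagon upper band, none enriched, and no cluster in glucagon lower band replicate 1. The window was placed on the highest enriched cluster, a control one, so this order is a description. The enriched clusters were centred 11 to 120 nt from the transcript start in the glucagon libraries and 40 to 286 nt from it in the control libraries. Of these 14 clusters the nearest was 279 nt from the start codon. In contrast to Hnrnpf, its first 500 nt of intron held 4 clusters in all and none enriched.

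The 3 genes enriched in 6 libraries included Elmsan1, which encodes a scaffold of a histone deacetylase complex (mean log2 fold 3.91, range 3.23 to 4.91), and B3gnt2, an enzyme that extends N-acetyllactosamine chains on glycans (3.64, range 3.05 to 4.79). The B3gnt2 value of 4.79, in glucagon lower band replicate 1, had a −log10 p-value of 3.35, near the limit of 3.

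Pum2, an RNA-binding repressor of translation, was enriched in 5 libraries and reached the highest fold of the recurrent genes. Its log2 fold was 3.58 and 3.61 in control lower band, 5.40 and 6.15 in control upper band and 3.45 in glucagon upper band replicate 2. In glucagon lower band replicate 2 and glucagon upper band replicate 1 its highest cluster stood at 2.60 and 2.27, and glucagon lower band replicate 1 had none. All 4 control libraries were thus above the highest glucagon value. This gene was picked out for its enrichment, so the order is a description. Also in 5 libraries were Cdc42ep4, an effector of the GTPase Cdc42 (mean 4.01), Rnf44, a RING finger protein (3.83), and Kctd6, an adaptor of cullin 3 ubiquitin ligases (3.48). Kctd6 has a 5' UTR of 1650 nt, and its enriched clusters lay 1308 to 1639 nt from the start codon. Necab2, Kctd9 and Fam83h followed with means of 4.10, 3.93 and 3.92, taken by mean fold from the 11 genes enriched in 4 libraries. Fam83h, a protein of the keratin skeleton, had a cluster at its printed window in all 8 libraries, with log2 folds of 2.40 and 2.65 in control lower band, 2.56 and 4.84 in control upper band, 2.73 and 3.20 in glucagon lower band, and 3.86 and 3.77 in glucagon upper band. All 4 glucagon values were above 3 of the 4 control values and below the highest, 4.84. The window was placed on the highest enriched cluster, a control one, so this order is a description.

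**Figure D4:**
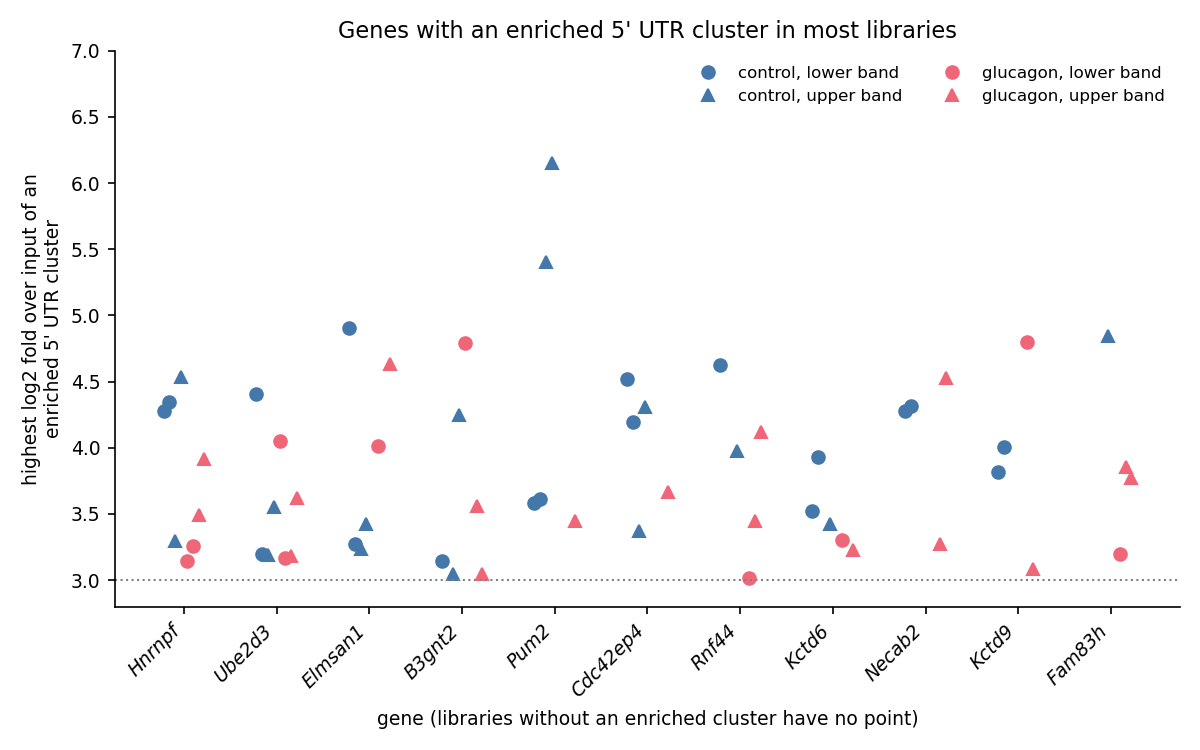
Highest log2 fold over input of an enriched 5' UTR cluster in each library, for 11 of 12 genes, coloured by treatment and shaped by band. The 12 were taken by number of libraries with an enriched cluster (4 to 8), ties by mean fold. Hnrnpf and Ube2d3 have a point in all 8 libraries, between 3.14 and 4.53, and the highest points are those of Pum2 in control upper band, at 5.40 and 6.15.

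The overlap between replicates of a group was partial. Of the enriched 5' UTR clusters of a library, 10.7% to 34.4% shared at least 1 base with an enriched cluster of the other replicate, and 32.1% to 87.9% with any cluster of it. The lowest values were those of glucagon lower band replicate 2, whose partner has the fewest clusters. The authors' lists of reproducible peaks held 73 peaks in the 5' UTR set, in 42 genes. They were 26 of 2206 peaks in control lower band, 26 of 3692 in control upper band, 3 of 413 in glucagon lower band and 18 of 2167 in glucagon upper band. Of the 42 genes, 30 were in 1 list, 8 in 2, 2 in 3, among them Pum2, and Hnrnpf and Ube2d3 in all 4. In the authors' deposited list for control upper band, Adcy6, an adenylyl cyclase, had a log2 fold of 4.18. The highest peaks of the lists also included B3gnt2, the GTPase gene Arf1, and Cnot6 and Cnot7, both deadenylase subunits of the CCR4-NOT complex.

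No change with glucagon in the share of clusters in 5' UTRs was detected beyond the spread between libraries. By library that share was 2.43% and 2.05% in control lower band, 1.35% and 1.22% in control upper band, 4.24% and 2.21% in glucagon lower band, and 2.24% and 1.65% in glucagon upper band. The mean was 2.58% ± 1.13 with glucagon and 1.76% ± 0.575 in control (n = 4 each), a difference of 0.825 percentage points (exact permutation within bands, p = 0.111, adjusted p = 0.185). Within bands it was 0.986 in the lower and 0.663 in the upper. Glucagon lower band replicate 1, the library with the fewest clusters, had the highest share, and without it the difference was 0.319 (exact permutation, p = 0.278). Upper bands held 1.61% ± 0.457 and lower bands 2.73% ± 1.01, a difference of -1.12 (exact permutation within treatments, p = 0.111, adjusted p = 0.185), which was -0.611 without that library (exact permutation, p = 0.167). The smallest p that this design allows is 0.0556, so no difference of this kind could pass 0.05.

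The 5' UTR share moved with the share of clusters in coding sequence, which ran from 10.2% to 36.2%. Relative to coding clusters the 5' UTR set was nearly constant, with 10.3 to 11.9 5' UTR clusters per 100 coding clusters. The ratio was 11.2 ± 0.707 with glucagon and 11.5 ± 0.367 in control (difference -0.226, exact permutation, p = 0.611), and it was 11.5 ± 0.445 in upper and 11.2 ± 0.635 in lower bands (difference 0.318, exact permutation, p = 0.5). The part of cluster number in the shares was not tested.

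The enriched share of 5' UTR clusters did not differ detectably by treatment or band. It was 1.32% ± 0.453 with glucagon and 1.60% ± 0.441 in control, a difference of -0.281 percentage points (exact permutation, p = 0.444, adjusted p = 0.556) made up of -0.777 in the lower and 0.216 in the upper band. Upper minus lower band was 0.0411 (exact permutation, p = 0.889, adjusted p = 0.889). The sign of the treatment difference was opposite in the 2 bands, and that difference was not tested.

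**Figure D5:**
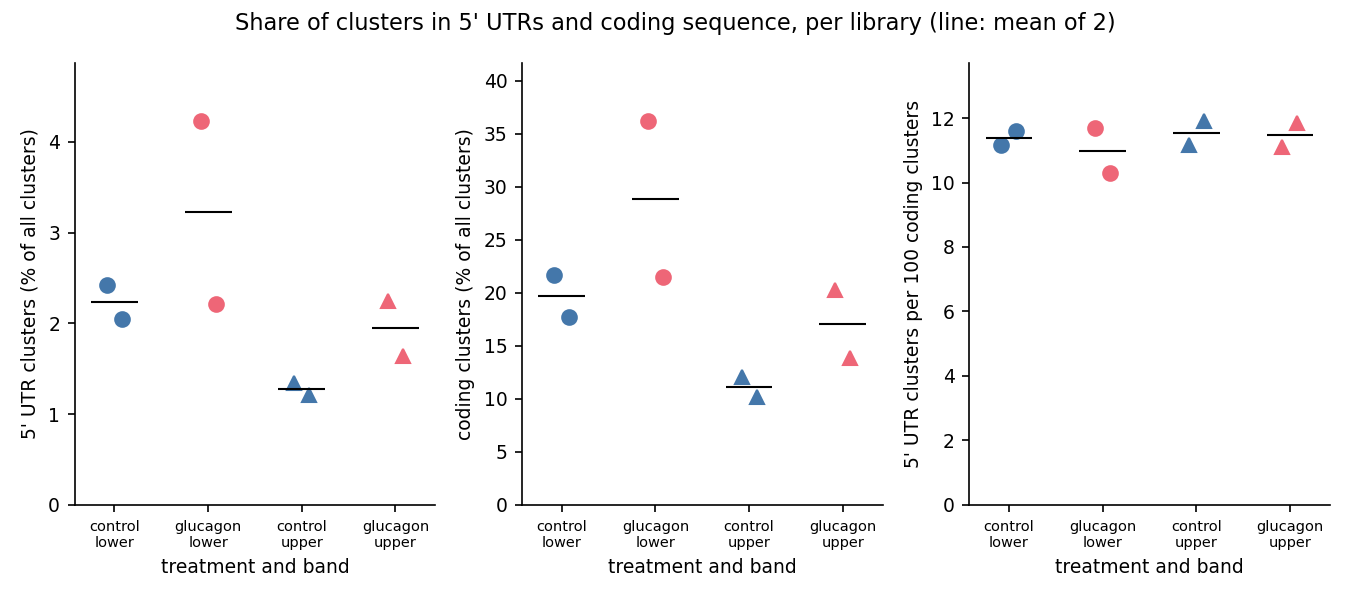
5' UTR clusters as a percent of all clusters (left), coding clusters as a percent of all clusters (middle) and 5' UTR clusters per 100 coding clusters (right), 1 point per library and a line at the mean of 2. The first runs from 1.22% to 4.24% and the second from 10.2% to 36.2%, and the third stays between 10.3 and 11.9.

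Few genes had enriched 5' UTR clusters in at least 2 libraries of 1 treatment and in none of the other. The 96 genes enriched in 1 library only are not counted here. Of the 162 genes, 7 (4.32%) were enriched in at least 2 glucagon libraries and no control library, where the same pattern outside 5' UTRs met 4.77% of 2745 genes. None was enriched in 3 glucagon libraries and no control library, where 0.656% of genes did so elsewhere. In the other direction 15 genes (9.26%) were enriched in at least 2 control libraries and no glucagon library, against 7.8% elsewhere. The shares lay near those of the other regions.

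Cwc22, which encodes a spliceosome factor that helps to load the exon junction complex, was the clearest case on the glucagon side. A 5' UTR cluster was present in all 4 glucagon libraries, with log2 folds of 6.64 and 1.43 in lower band replicates 1 and 2 and 4.44 and 0.31 in upper band replicates 1 and 2, and in no control library. The 2 replicate 1 libraries were enriched and the 2 replicate 2 libraries were not. The enriched clusters were 27 and 26 nt wide and overlapped, with midpoints 27 and 28 nt before the first 5' splice site. Cwc22 was the only gene with a cluster in all glucagon and no control libraries (1 of 4848, 0.0206%), while 11 genes (0.227%) had the reverse pattern and 1 of these, Zfp219, had an enriched cluster. The other glucagon genes taken by the rule for named genes were Raph1, which encodes the actin regulator lamellipodin (log2 fold 3.20 and 5.56), Dapk1, a death-associated kinase (4.79 and 3.16), Ezh2, the methyltransferase of Polycomb complex PRC2 (4.44 and 3.18), Trmt112, a methyltransferase partner (3.47 and 4.03), and Fam204a (3.67 and 3.14). Each was enriched in 2 glucagon libraries, and all but Cwc22 also had clusters under the threshold in control libraries. Several of these calls lay near the p-value limit of 3. The −log10 p-values, in the same order, were 3.35 and 3.75 for Dapk1 and 3.235 and 3.13 for Ezh2. They were 3.15 and 4.43 for Trmt112, 3.28 and 4.36 for Fam204a, and 6.71 and 7.60 for Raph1. Cwc22, Raph1 and Trmt112 were enriched in the 2 glucagon libraries of replicate 1 and in neither of replicate 2.

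On the control side, Pitpnm2, a phosphatidylinositol transfer protein, was enriched in 3 control libraries (3.40, 3.31 and 4.25). Thoc6, a subunit of the THO complex of mRNA export (4.73 and 3.93), the forkhead repressor Foxn3 (4.70 and 3.66), the kinase adaptor Tab2 (5.07 and 3.12) and the translation factor Eif5a (3.36 and 4.20) were enriched in 2 each. Tab2 had clusters of 2.65 to 3.05 in all 4 glucagon libraries, so its difference was one of degree. The same held for Thoc6, with highest log2 folds of 1.81 to 2.60 in the glucagon libraries. In Foxn3, a wider cluster over the same site in glucagon upper band replicate 2 passed both limits too (3.02), but its midpoint lay in the first intron, so it is not in the set.

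By band, 11 genes (6.79%) were enriched in at least 2 upper and no lower libraries, against 10.6% outside 5' UTRs, and 8 (4.94%) in at least 2 lower and no upper libraries, against 1.89%. Krit1, the scaffold lost in cerebral cavernous malformations (3.10 and 4.67), Ezh2 and Ripor1 (3.43 and 4.18) were enriched in 2 upper band libraries. Each also had clusters under the threshold in lower band libraries. Their highest log2 folds there were 1.58, 1.86 and 2.54 in Krit1, 2.82 and 2.07 in Ezh2, and 2.69 and 2.84 in Ripor1. On the lower band side were Socs5, a suppressor of cytokine signalling (3.14, 3.35 and 3.84), the GTPase Arf3 (3.04 and 4.20), Thoc6 and Dapk1. Socs5 had clusters in all upper band libraries too, at 2.33 and 2.47 in control and 2.67 and 2.31 with glucagon. So had Thoc6, at 2.93 and 2.83 in control and 2.60 and 1.81 with glucagon. The mere presence of a 5' UTR cluster separated the bands in few genes. Clusters in all 4 upper and no lower libraries were found in 7 genes (0.144% of 4848), namely Cdca4, Cplane1, Dck, Herc2, Luc7l3, Ran and Rubcn, of which the ubiquitin ligase gene Herc2 and Luc7l3 had an enriched one. The reverse held for 6 genes (0.124%), among them Clcn4, Clic4, Hsd17b13, Pkm, which encodes pyruvate kinase M, and Ywhae, with none enriched.

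Several functional groups had no enriched 5' UTR cluster, where 1.45% of all 5' UTR clusters and 3.34% of the genes with one were enriched. With these low shares and the few genes in each group, a count of 0 is not read as particular to any of them. Of 89 ribosomal and translation genes whose mRNAs begin with a terminal oligopyrimidine tract, 39 had 316 5' UTR clusters, with a median log2 fold of -0.48 and none enriched, where the median over all 5' UTR clusters was 0.61. Abundant secreted proteins (24 of 42 genes, median -0.30), mRNAs with upstream reading frames of the stress response (16 of 18, 0.09), mRNAs with an iron-responsive element (4 of 6, -0.37) and enzymes of glucose and lipid metabolism (26 of 48, 0.27) also had none enriched. Of the hepatocyte markers, 7 had 5' UTR clusters, none enriched.

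Among RNA-binding proteins some were enriched. Of 75 splicing factors and nuclear RNA-binding proteins, 56 had 5' UTR clusters and 4 an enriched one, Hnrnpf, Hnrnpd, Hnrnpk and Luc7l3, which is a partner of the U1 snRNP. Their median over 324 clusters was 0.29. Of 38 genes of translational control and mRNA decay, 23 had clusters and 3 an enriched one, Pum2, Cnot6 and Cnot6l. That list does not hold Cnot7 and Eif5a, which were enriched in 4 and 2 libraries. Cnot6 was enriched in 4 libraries, with log2 folds of 3.46 and 4.16 in control lower band, 3.16 in glucagon lower band replicate 2 and 3.53 in glucagon upper band replicate 2. Cnot6l, its paralog, was enriched in 2 (3.05 and 3.39). Hnrnpd had 5' UTR clusters in all 8 libraries, with a highest log2 fold between 1.96 and 3.13, and was enriched in 2 of them. These counts were set against 162 of 4848 genes overall and carry no test.

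The list of glucagon and cAMP response genes held 1 enriched gene. Adcy6, which is not in that list, was enriched in control lower band replicate 2 (3.31) and control upper band replicate 1 (4.77). It was also enriched in glucagon upper band replicate 2 (4.97). Of 35 genes of the glucagon and cAMP response, 19 had 60 5' UTR clusters, where 4848 of all 20306 genes had one, and 1 of the 19, Klf15, had an enriched one, against 3.34% of genes overall. Klf15 encodes a fasting-induced transcription factor of amino acid breakdown and gluconeogenesis. Its single 5' UTR cluster, in glucagon upper band replicate 2, had a log2 fold of 3.02, just inside the threshold. In the first 500 nt of its first intron, in contrast, the control libraries held 0 to 3 clusters with none enriched, and the glucagon libraries 1, 5, 3 and 4 clusters, of which 1, 4, 1 and 4 were enriched. Of 38 nuclear receptors and coregulators, 24 had clusters, with a median log2 fold of 1.14, and 2 were enriched in 1 library each, Ppard (3.99, control) and Nr2f6 (3.27, glucagon). Of 60 oxidative phosphorylation genes, 25 had clusters and only Cox6c an enriched one (3.97, control upper band replicate 2).

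Of the 6 genes with most 5' UTR clusters, 1 had an enriched one. Tmbim1, with a 5' UTR annotated at 8962 nt, had 77 clusters over the 8 libraries, of which 4 were enriched in 3 libraries (log2 fold 3.16 to 5.004). BC005537 had 63, Man2a1, a Golgi mannosidase, 52, Atp13a3, a polyamine transporter, 50, Gm38394 46 and Atp2a2, the calcium pump SERCA2, 40, and none of these was enriched. In Atp13a3 the highest log2 fold in any library was 1.14.

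Enrichment in the 5' UTR and in the first intron met in the same genes. Of the genes with an enriched 5' UTR cluster in a library, 13.3% to 57.7% also had an enriched cluster in the first 500 nt of the first intron, against 2.77% to 11.3% of genes whose 5' UTR clusters were not enriched. The former share was higher in each of the 8 libraries. Adjacent regions of one gene share its expression and its input level, and their part in this was not tested.

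Runs of G were more frequent under enriched clusters. The motif GGGG, searched on the transcript strand only in 51-nt windows centred on the cluster, was present in 45.4% ± 8.08 of enriched and 28.4% ± 0.964 of other 5' UTR clusters, and in 27.8% of all windows of that length in annotated 5' UTRs. The share was higher among the enriched in 8 of 8 libraries. The windows of Ube2d3 and Kctd6 printed above hold it and those of Hnrnpf, Pum2, Fam83h, Cwc22 and Klf15 do not. The motif was chosen after the sequences were seen, and a match is a description of the letters. GC content moved with it, with a mean of library medians of 70.8% under enriched and 65.7% under other clusters, higher in 7 of 8 libraries, and its part was not tested.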

How the data were processed

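Per the submitters' processing notes, cutadapt was used for trimming, STAR for alignment, and mm10 was the genome build. No versions are given there. The peak caller is not given in the sources used here. The deposited files have no header, and their 2 values were read from the numbers as the authors' −log10 p-value of enrichment over input and the authors' log2 fold over input, for each library separately and in 1 reproducible list per group. Both values were used only to filter and describe clusters. Positions are 1-based (mm10).

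Every cluster was assigned, by midpoint on its strand, to the chosen GENCODE M21 transcript of 20306 multi-exon genes. Placement was checked with bedtools on the 3217 clusters of control lower band replicate 1, with a difference of 0. Depth is unknown, and exact binomial intervals cover counting error only. For treatment and band, labels were permuted exactly within the other factor (two-sided, 36 assignments), and enriched clusters were compared with other clusters by exact two-sided sign flips over 8 libraries (256, smallest p 0.00781), with Benjamini-Hochberg adjustment over 10 tests at a threshold of 0.05. Of these, only the sign flips were tried on simulated data. The tools were bedtools 2.31.1, scipy 1.17.1, matplotlib 3.10.9, pandas 2.3.3, numpy 2.4.6 and Python 3.11.15.

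The rule for named genes took up to 12 genes by number of libraries with an enriched cluster, ties by mean fold. It also took up to 6 per treatment and 4 per band enriched on that side alone and the 6 with most clusters. Up to 3 of each gene list and the 3 highest of each reproducible list were added. Luc7l3, Zfp219, Herc2 and the other genes listed for the presence or absence of a cluster were named after their values were seen. Some genes that the rule takes are left out of the text. The set, the gene lists and the tests were chosen with earlier results of these data known. Alternatives covered the fold and p thresholds, placement by the 5' end, other transcripts, clusters on Neat1 (left out of the total), windows of 50 and 200 nt, each library left out and a replicate block.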

Additional observations from a re-analysis of the deposited data

How the results depend on the processing

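Counts moved with the thresholds, with 947 enriched 5' UTR clusters in 337 genes at a log2 fold of at least 2, 77 in 52 genes at 4, and 205 in 90 genes at a −log10 p of at least 5. Without clusters intronic in another coding transcript, chosen after seeing the data, there were 118 in 74 genes. At a log2 fold of at least 4 the glucagon difference in the enriched share was 0.0763, the band difference -0.0534 and the splice-site difference 7.60, all opposite in sign to the values above. The start-codon difference (-15.5) and the exon 1 difference (11.96) no longer passed. Placing clusters by the 5' end gave a band difference of -0.0580 and a splice-site crossing of 5.47, which passed. A window of 50 nt gave -4.96 at the splice site, which passed. Without clusters intronic elsewhere the band difference was -0.386 and the splice-site difference 2.39. Without clusters outside exon 1 the splice-site difference was -10.3, which passed, and crossing -0.906. The cause of these changes was not tested.

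Leaving out 1 library at a time gave 274 to 334 enriched clusters in 135 to 156 genes, a glucagon difference in the 5' UTR share of 0.319 to 1.33 (without glucagon lower band replicates 1 and 2), a band difference of -1.62 to -0.611, and for the enriched share -0.472 to -0.0896 by treatment and -0.150 to 0.232 by band. Crossing was -0.139 to 2.09. The other position and region tests kept their side of the threshold. With a replicate block the 4 units cannot give a p below 0.125, so the values 1.34, -12.6, -25.8, 15.9 and 42.1 no longer passed. Correlations of replicate differences between groups were 0.022 to 0.139 over 424 genes, so the numbers were not taken to pair the libraries. Fewer than 20 enriched clusters in glucagon lower band replicate 1 (16) limit its position shares.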

Other observations

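The 11 genes with a 5' UTR cluster in all 4 control and no glucagon libraries were Casd1, Desi1, Gnl2, Ndufaf1, Ppp1r16a, Psip1, Sh2b3, Sh3glb2, Stk40, Trib3 and Zfp219. Trib3 encodes a pseudokinase of the stress response, Gnl2 a nucleolar GTPase of ribosome assembly, Ndufaf1 an assembly factor of respiratory complex I, and Sh2b3 an adaptor of cytokine signalling. These names were taken from the values. Glucagon lower band replicate 1 had 881 genes with a 5' UTR cluster against 1637 to 2906 in the others, and its part in each absence was not tested.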
